A study of Mus musculus with 14 samples.

Results

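The genes of the proteasome were examined in T cells sorted from the spleens of leukemic mice. They were taken as every symbol that begins with Psm, followed by a letter from a to g and a digit, which gave 50 of the 24091 genes listed. Of these, 49 encode a subunit, activator, inhibitor or assembly chaperone of the proteasome, and Psmc3ip, a recombination factor that shares the symbol only, is given apart. Enough reads for a test were found for 47 of the 49. Psma8, the testis form of an alpha subunit, had at most 3 reads in any mouse, and Psmb11, the subunit of thymic cortical epithelium, had at most 1 read in any CP CML mouse and none in BC CML. The comparison was between 8 Mir142+/+BCR-ABL mice (chronic phase, CP CML) and 6 Mir142−/−BCR-ABL mice (blast crisis, BC CML), with 1 library per mouse. Both groups carried the SCLtTA/BCR-ABL transgenes on a C57Bl/6j background, in which the SCL promoter drives BCR-ABL in blood stem and progenitor cells once tetracycline is withdrawn, and both had been induced for 3 weeks. They were 6 to 10 weeks old and of both sexes. The Mir142 deletion was global, so that all cells of the BC CML mice lacked it and not the T cells alone. From each mouse, 200000 T cells were sorted. The mouse names carry a common prefix within each group that differs between the groups, so whatever that prefix marks cannot be told apart from genotype.

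The 26S proteasome degrades ubiquitin-tagged proteins. Its 20S core is a barrel of outer alpha rings, which gate the channel, and inner beta rings, which hold the proteolytic sites in Psmb5, Psmb6 and Psmb7. A 19S particle on the end of the barrel binds the ubiquitin chain with its lid and base and unfolds the protein with its ATPases. In lymphocytes, and in other cells exposed to interferon, the catalytic subunits are replaced by Psmb8, Psmb9 and Psmb10 to form the immunoproteasome, and the Psme1 and Psme2 proteins form the 11S activator. Both are known for making peptides that are presented on MHC class I.

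Libraries held between 15703702 and 19914531 reads. Mir142 had 302 to 650 reads in the CP CML mice and 0 in each of the 6 BC CML mice. All 8 T cell markers were detected in both groups. BC CML had more of 5 of the 8, the other 3 did not pass the test, and the summed level of all 8 was 2710 to 3112 CPM (counts-per-million of library reads) in CP CML and 3192 to 3530 CPM in BC CML. Cd3e, a chain of the T cell receptor complex, had a median of 412 CPM in CP CML and 416 CPM in BC CML. Markers of other cells were present and differed. The summed level of 14 myeloid markers was 90.4 to 743 CPM in CP CML and 871 to 2262 CPM in BC CML, and 12 of the 14 were higher in BC CML. That of 8 B cell markers was 60.7 to 180 CPM and 103 to 511 CPM, with 6 higher, and that of 6 dendritic cell markers was 7.37 to 19.9 CPM and 32.6 to 119 CPM, with 3 of the 4 tested higher. No marker of these lists was at 0 in every mouse of a group. All 7 naive T cell markers were lower in BC CML, and 8 of 10 effector markers were higher. Of 10 proliferation markers, 2 were lower. Since these are bulk samples, fewer cells of a type and less RNA per cell cannot be told apart.

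Proteasome genes were moderately abundant, and more of them were higher than lower in BC CML, by small amounts. Of the 47, 22 were higher in BC CML (46.8%) and 6 were lower (12.8%), at an adjusted p below 0.05 over all genes tested, and 19 did not pass. Among all 12248 genes tested, 32.6% were higher and 32.7% lower. The median log2 fold change of BC CML against CP CML was 0.07 for the 47 genes and −0.01 for all genes, and the median size, regardless of sign, was 0.13 against 0.28. No proteasome gene reached a log2 fold change of 1 in either direction, and 3 of 47 reached 0.5, compared with 29.7% of all genes tested. All genes tested include many with fewer reads, and these sizes were not compared at equal read level. For 13 of the 47, all BC CML mice lay above all CP CML mice, and for 2 all lay below, where 19.3% and 17.6% of all genes did so.

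**Figure D1:**
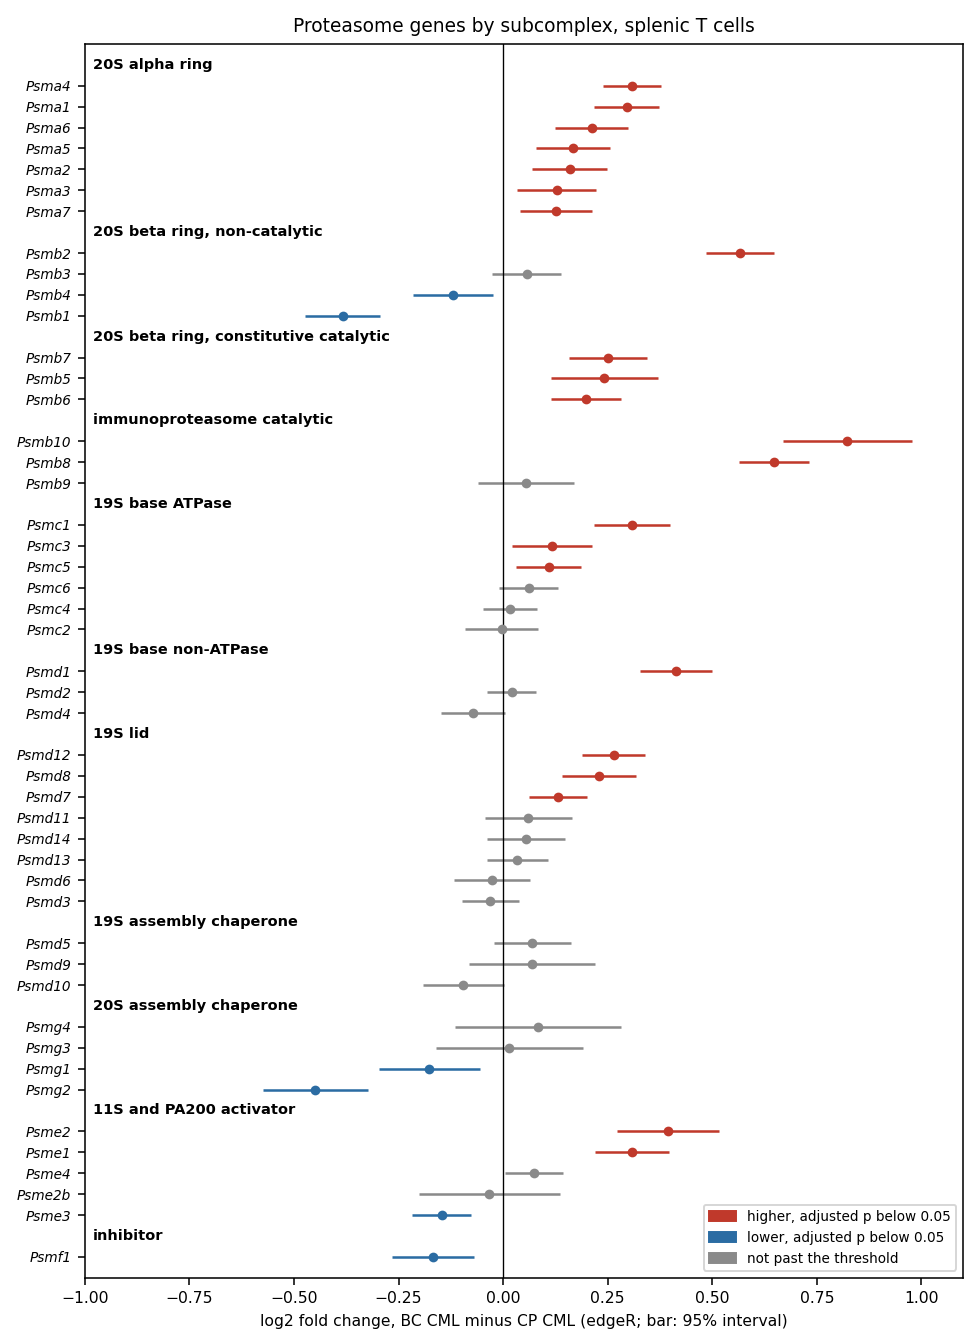
Log2 fold change of BC CML against CP CML for the 47 tested proteasome genes, grouped by subcomplex, each point with its 95% interval (n = 6 and 8 mice). Red marks the 22 genes that were higher, blue the 6 that were lower and grey the 19 not past the threshold. Psmb10 (0.82) and Psmb8 (0.65) lie farthest to the right and Psmg2 (−0.45) farthest to the left.

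The summed level of all 49 genes was 4004 to 4349 CPM in the CP CML mice (median 4144) and 4455 to 5104 CPM in the BC CML mice (median 4611), so the groups did not overlap. The sum of the 3 immunoproteasome subunits was also apart, at 355 to 430.2 CPM against 546 to 649 CPM. The groups overlapped for the 14 genes of the constitutive 20S core (1133 to 1234 CPM against 1221 to 1419 CPM) and for the 17 genes of the 19S particle (1525 to 1640 CPM against 1624 to 1838 CPM). BC CML replicate 5 was the highest mouse of all, at 5104 CPM, and was the highest of the BC CML mice for 33 of the 47 genes. It also had the highest sum of proliferation markers, 1030 CPM, where the median of the BC CML mice was 727 CPM. Its name carries a suffix that no other mouse has and that the labels do not explain. Without this mouse, 18 genes were higher and 7 lower. The genes Psma3, Psma7, Psmc3 and Psmc5 were lost and Psmd4 was gained.

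**Figure D2:**
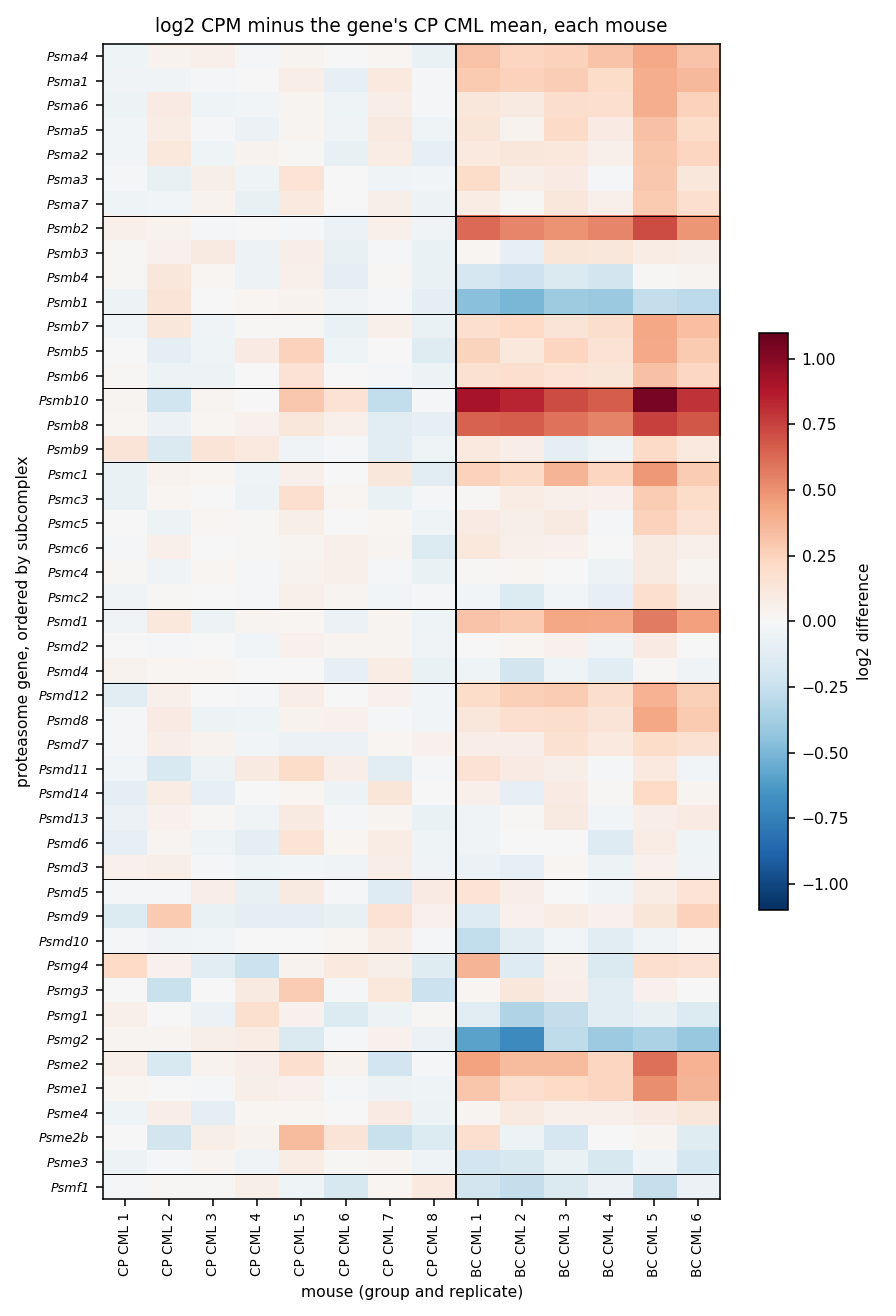
Each proteasome gene (rows, by subcomplex) in each mouse (columns, 8 CP CML then 6 BC CML), as the log2 CPM minus the mean of that gene over the CP CML mice. The column of BC CML replicate 5 is the reddest, and the rows of Psmb10, Psmb8 and Psmb2 are red in all 6 BC CML mice.

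Fewer genes were called when a marker level of other cells was included in the fit. With the mean log2 CPM of the myeloid markers as a covariate, 13 genes were higher and 2 lower, all of them among the 28 called without it. Calls over all genes tested were also fewer, with 22.2% higher and 22.6% lower. The median log2 fold change of the 47 was then 0.09 and the median standard error (SE) was 0.07, compared with 0.05 without the covariate. With the B cell markers as the covariate, 17 were higher and 4 lower, beside 27.2% and 26.4% of all genes tested. The genes that kept their call in both fits were Psma1, Psma4, Psmb1, Psmb2, Psmb5, Psmb6, Psmb7, Psmb8, Psmb10, Psmc1, Psmd1, Psmd12, Psme1, Psme2 and Psmg2. The score and the genotype move together, and the part of other cells in the remaining results was not tested.

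The immunoproteasome subunits did not move as a set. Psmb10, the counterpart of Psmb7, had 60.5 CPM in the lowest CP CML mouse, a median of 73.7 and 89.9 in the highest. In the BC CML mice it had 116, 129 and 150 CPM. The groups were far apart, and the log2 fold change was 0.82 (SE 0.08, adjusted p = 9.83e-08), the largest of the 47. Psmb8, the counterpart of Psmb5, had 227, 249 and 269 CPM (lowest, median and highest) in CP CML and 358, 388 and 414 CPM in BC CML. All 6 BC CML mice were again above all 8 CP CML mice, with a log2 fold change of 0.65 (SE 0.04, adjusted p = 4.94e-10). Psmb9, the counterpart of Psmb6, behaved differently. It had 65.8, 72.2 and 81.3 CPM in CP CML and 68.2, 78.3 and 85.03 CPM in BC CML. Only 1 of 6 BC CML mice exceeded the highest CP CML mouse, and the log2 fold change of 0.06 (SE 0.06) had an adjusted p of 0.419, with a 95% interval from −0.06 to 0.17.

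The constitutive catalytic subunits rose, by less than Psmb8 and Psmb10 did. Psmb5, the chymotrypsin-like site, had 16.8, 18.1 and 21.9 CPM in CP CML and 20.01, 21.8 and 24.5 CPM in BC CML. These ranges overlapped, and the log2 fold change was 0.24 (SE 0.06, adjusted p = 0.00332). Psmb6, the caspase-like site, had 53.1, 55.1 and 61.8 CPM against 60.5, 62.5 and 69.3 CPM, with a log2 fold change of 0.20 (SE 0.04, adjusted p = 0.000536). Psmb7, the trypsin-like site, had 58.4, 61.1 and 67.1 CPM against 67.7, 70.8 and 82.7 CPM. Its groups did not overlap, and the log2 fold change was 0.25 (SE 0.05, adjusted p = 0.00017).

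**Figure D3:**
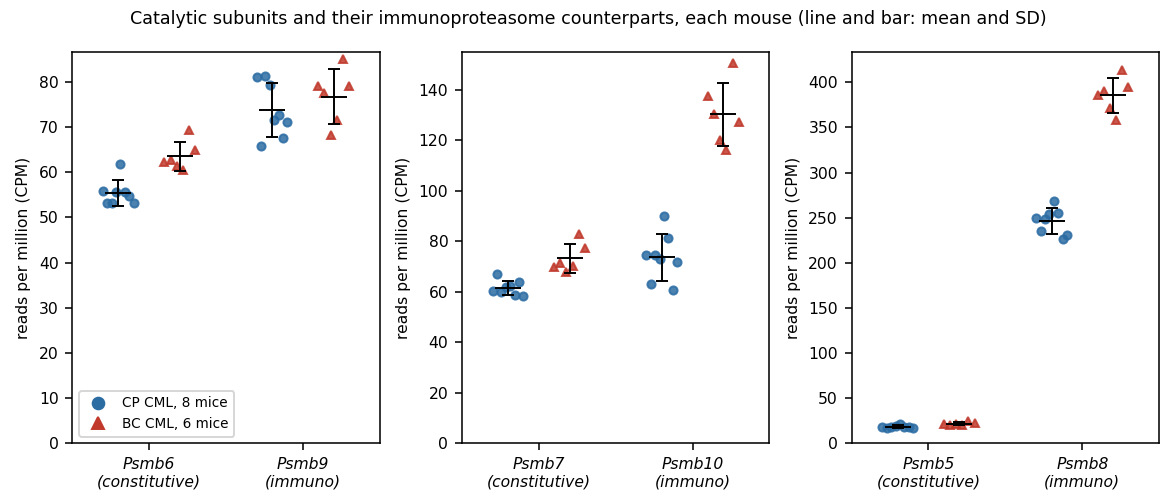
CPM of each constitutive catalytic subunit and of its immunoproteasome counterpart in each mouse (circles, 8 CP CML mice; triangles, 6 BC CML mice), with the group mean and SD. BC CML mice lie above all CP CML mice for Psmb10 and Psmb8, while the groups mix for Psmb9.

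The balance within each pair was compared by the log2 ratio of reads in the same library, which needs no scaling between libraries. The mean log2 ratio of Psmb8 to Psmb5 was 3.74 ± 0.08 (SD) in the 8 CP CML mice, while in the 6 BC CML mice it was 4.14 ± 0.07 (SD). The difference of 0.41 (SE 0.04) had an adjusted p of 0.000999, from an exact permutation test (two-sided, 3003 splits of the mice) adjusted over 3 pairs. These 3 pairs were chosen with earlier results of these data known, so their p values are not those of a blind test. The unadjusted exact p of 0.000666 is the smallest that this test can give. For Psmb10 against Psmb7 the mean log2 ratio was 0.25 ± 0.23 and 0.83 ± 0.10 (SD), a difference of 0.58 (SE 0.09) with the same adjusted p of 0.000999 by the exact test. All 6 BC CML mice exceeded all 8 CP CML mice in both pairs. The ratio of Psmb9 to Psmb6 moved the other way, from a mean of 0.41 ± 0.14 to 0.27 ± 0.07 (SD). This difference of −0.14 (SE 0.06) had an exact permutation p of 0.0366, adjusted and unadjusted, and the groups overlapped. It is the least stable of the pairs, since 8 of the 14 tests that leave out a mouse gave a p above 0.05, with a range of the difference from −0.17 to −0.11. Leaving out CP CML replicate 1, 3, 4, 6 or 8 or BC CML replicate 3, 4 or 6 had this effect.

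**Figure D4:**
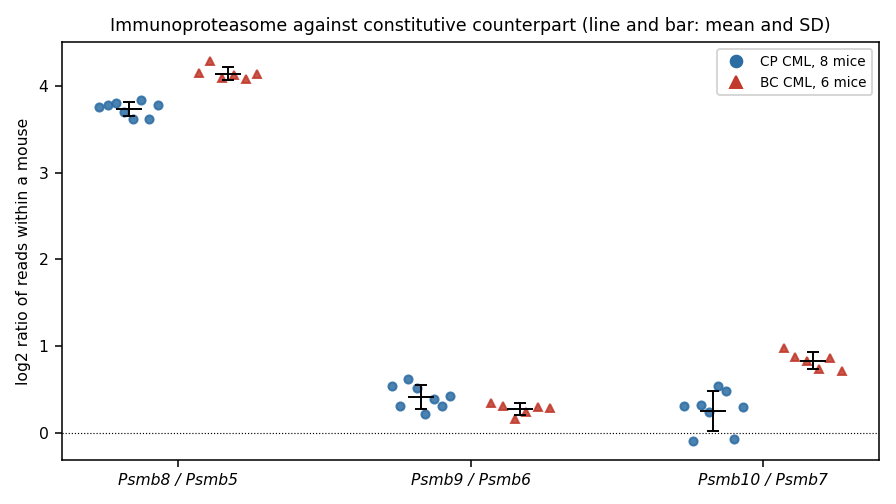
Log2 ratio of the reads of each immunoproteasome subunit to those of its constitutive counterpart, for each mouse (circles, 8 CP CML; triangles, 6 BC CML), with the mean and SD. Groups are apart for Psmb8 against Psmb5 and for Psmb10 against Psmb7, and overlap for Psmb9 against Psmb6.

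Scaled to gene length, the immunoproteasome form held most of the reads of each pair in both groups. Among CP CML mice Psmb8 made up 90.5% ± 0.50 (SD, n = 8) of the reads per kilobase of its pair, and among BC CML mice 92.6% ± 0.34 (SD, n = 6). The share of Psmb10 was 75.1% ± 3.00 and 81.9% ± 1.00, and that of Psmb9 was 63.1% ± 2.19 and 60.8% ± 1.13. These are shares of mRNA reads and not of assembled particles. Psmb8 and Psmb9 were also compared directly, a pair chosen after their values were seen. Their log2 ratio was 1.74 ± 0.11 (SD) in CP CML against 2.33 ± 0.06 (SD) in BC CML, a difference of 0.59 that is given as a description, with no test.

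Psmb8 and Psmb9 are close neighbors in the MHC region of chromosome 17 (mm10). Psmb9 spans 34182099 to 34187330 on the minus strand, and Tap1, a chain of the peptide transporter that loads MHC class I, begins 225 bases beyond its start, on the opposite strand. After Tap1, another 969 bases precede Psmb8, on the plus strand from 34198195 to 34201454, and Tap2, the other chain of the transporter, follows after 3024 bases. The adjoining Psmb9 and Tap1 did not pass the test, with log2 fold changes of 0.06 and 0.04 (SE 0.04, adjusted p = 0.396 for Tap1). Psmb8 and Tap2, which follow them, rose, by 0.65 and 0.32 (SE 0.05, adjusted p = 5.8e-05 for Tap2). Psmb10 lies apart from them, on chromosome 8 (105935728 to 105938392, minus strand). The 250 bases before the start of each immunoproteasome gene, taken from RefSeq on GRCm38.p6 and written 5′ to 3′ on the strand of the gene, are shown because the genes differ in response. Capitals mark matches to the motifs searched, which are given after the sequences.
Psmb8, chr17:34197945-34198194, plus strand: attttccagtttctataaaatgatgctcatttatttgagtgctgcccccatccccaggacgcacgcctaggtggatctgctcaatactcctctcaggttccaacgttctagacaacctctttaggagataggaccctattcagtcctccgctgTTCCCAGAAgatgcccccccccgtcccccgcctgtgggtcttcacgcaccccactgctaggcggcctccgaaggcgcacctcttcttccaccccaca
Psmb9, chr17:34187331-34187580, minus strand: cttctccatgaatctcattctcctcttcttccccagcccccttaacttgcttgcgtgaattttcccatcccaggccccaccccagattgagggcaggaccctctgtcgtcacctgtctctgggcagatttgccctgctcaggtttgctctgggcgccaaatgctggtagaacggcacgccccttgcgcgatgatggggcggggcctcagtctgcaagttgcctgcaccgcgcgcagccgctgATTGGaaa
Psmb10, chr8:105938393-105938642, minus strand: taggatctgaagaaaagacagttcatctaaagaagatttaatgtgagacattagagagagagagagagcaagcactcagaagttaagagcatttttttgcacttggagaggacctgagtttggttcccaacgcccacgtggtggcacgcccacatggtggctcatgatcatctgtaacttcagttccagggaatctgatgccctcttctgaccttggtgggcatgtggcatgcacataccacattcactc

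The motifs were searched on both strands from 250 bases before to 50 bases after the start. The capitals in Psmb8 are TTCCCAGAA, which fits the palindromic gamma-activated site core TTCNNNGAA, and begin 97 bases before the start. Those in Psmb9 are ATTGG, the CCAAT box read on the opposite strand, which begins 8 bases before the start. Psmb10 held no match. A promoter was held in the RefSeq table for 41 of the 49 genes. TTCNNNGAA was present in 3 of the 41 (7.32%), namely Psmb8, Psmd2 and Psmg1, and in 9.55% of all 27025 genes with a promoter. The interferon response motif GAAANNGAA was present in 7 (17.1%, against 9.76% of all genes), among them Psme1, and the antioxidant response element core TGACNNNGC in 6 (14.6%, against 13.99%), among them Psmb5 and Psmb6. The CCAAT box was present in 14 (34.1%, against 41.1%). No motif overlapped another in the sequences shown. A match is a description of letters and not a binding site.

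The 11S activator subunits rose with Psmb8 and Psmb10. Psme1 was the most abundant proteasome gene per length, and had 262, 271 and 285 CPM (lowest, median and highest) in CP CML and 309, 328 and 387 CPM in BC CML. The groups did not overlap, and the log2 fold change was 0.31 (SE 0.05, adjusted p = 1.19e-05). Psme2, its partner in the ring, had 153, 182 and 201 CPM in CP CML and 208, 228 and 269 CPM in BC CML, again without overlap, with a log2 fold change of 0.39 (SE 0.06, adjusted p = 2.48e-05). Psme3, which forms a separate nuclear activator, fell, from 176, 183 and 194 CPM to 159, 162 and 177 CPM. In 5 of 6 BC CML mice it was below all CP CML mice, with a log2 fold change of −0.15 (SE 0.04, adjusted p = 0.0017). It was −0.14 (adjusted p = 0.0624) with the myeloid covariate and −0.11 (adjusted p = 0.0568) with the B cell covariate. Psme4, the PA200 activator, had a log2 fold change of 0.07 (SE 0.04, adjusted p = 0.0775), and passed by DESeq2 (0.08, adjusted p = 0.0455) and without CP CML replicate 7 (0.09, adjusted p = 0.0388). Psme2b, an intronless copy of Psme2, had −0.03 (SE 0.09, adjusted p = 0.749). It shares near-identical sequence with Psme2, and its listed span lies inside Gm12185 on the same strand, so its reads are uncertain. Psmf1, which encodes the inhibitor PI31, was lower, with a log2 fold change of −0.17 (SE 0.05, adjusted p = 0.00707). It had 35.2, 40.1 and 42.9 CPM in CP CML against 33.2, 35.0 and 38.0 CPM in BC CML, where 3 of 6 mice were below all CP CML mice. With the myeloid covariate its log2 fold change was −0.16 (SE 0.08, adjusted p = 0.124), and with a replicate block, in which mice of the same number are paired, −0.15 (adjusted p = 0.052).

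All 7 genes of the 20S alpha ring, Psma1 to Psma7, were higher in BC CML, where 32.6% of all genes tested were. Their log2 fold changes ran from 0.13 to 0.31, with a median of 0.17. Psma4 was at the top, with 94.5, 100.1 and 103 CPM in CP CML and 117, 124 and 133 CPM in BC CML. Its groups were apart, and the log2 fold change was 0.31 (SE 0.04, adjusted p = 5.63e-07). Psma7 was at the bottom, with 100.5, 105 and 115 CPM against 107, 114 and 130 CPM and a log2 fold change of 0.13 (SE 0.04, adjusted p = 0.0183). Here 3 of 6 BC CML mice were above all CP CML mice. For Psma1, Psma4 and Psma6 the groups did not overlap, and for the other members of the ring they did. The count of 7 of 7 rested in part on a single mouse and on the covariate. Without BC CML replicate 5, 5 of the 7 were higher, as Psma3 had a log2 fold change of 0.09 (adjusted p = 0.084) and Psma7 of 0.09 (adjusted p = 0.0618). Psma3 was also lost without BC CML replicate 1, with 0.11 (adjusted p = 0.0637). With the B cell covariate 4 of the 7 passed, where 27.2% of all genes tested were higher. With the myeloid covariate 2 passed, Psma1 and Psma4, where 22.2% of all genes tested were higher. All 7 log2 fold changes stayed above 0 in both fits. For Psma3 the log2 fold change was 0.13 with and without the myeloid covariate, and its SE with it was 0.08.

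The non-catalytic beta subunits split in direction, although each 20S core takes the same number of every one. Psmb2 rose, with 46.3, 48.1 and 50.5 CPM in CP CML and 67.7, 70.3 and 79.8 CPM in BC CML. Its groups were widely apart, and its log2 fold change of 0.57 (SE 0.04, adjusted p = 1.8e-09) was the largest outside the immunoproteasome. Psmb1 fell, from 130, 139 and 154 CPM to 98.5, 106 and 116 CPM, also without overlap, with a log2 fold change of −0.38 (SE 0.05, adjusted p = 9.27e-07). The log2 ratio of Psmb2 to Psmb1, a pair chosen after the values were seen, was −1.52 ± 0.07 (SD, n = 8) for CP CML, and for BC CML −0.57 ± 0.11 (SD, n = 6). The means differed by 0.95, a description with no test, since the pair was picked for its opposite directions. The listed span of Psmb2 lies within that of Eno1b on the same strand, which had at most 76 reads in any mouse, against 749 or more for Psmb2. Psmb4 was slightly lower, with a log2 fold change of −0.12 (SE 0.05, adjusted p = 0.0381), a call lost in 9 of 14 fits that left out a mouse. It was past the threshold without CP CML replicate 4, 6 or 8 or BC CML replicate 5 or 6, and lost without any other mouse, with adjusted p up to 0.0943. It was also lost with the replicate block (adjusted p = 0.0771) and with the myeloid covariate (−0.17, adjusted p = 0.0755). Psmb3 had a log2 fold change of 0.06 (SE 0.04, adjusted p = 0.247).

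Of the 17 genes of the 19S particle that the symbol rule takes, 7 were higher in BC CML. By edgeR (also at an unadjusted p below 0.05) or DESeq2, 0 were lower, and the median log2 fold change was 0.06. The share that was higher, 41.2%, was near the 32.6% of all genes tested. Adrm1 and Sem1, also subunits, lie outside the symbol rule and were counted with the related genes described below. Adrm1 was lower, with a log2 fold change of −0.13 (SE 0.05, adjusted p = 0.0217). Sem1 was higher, with 0.13 (SE 0.05, adjusted p = 0.0417), a call lost in 8 of 14 fits that left out a mouse. Of the base ATPases, which unfold and thread the substrate, Psmc1 changed most. It had 99.7, 108 and 118 CPM in CP CML and 125, 130 and 150 CPM in BC CML. The groups did not overlap, and the log2 fold change was 0.31 (SE 0.05, adjusted p = 1.6e-05). Psmc3 (0.12, adjusted p = 0.0447) and Psmc5 (0.11, adjusted p = 0.022) passed narrowly. Psmc3 held in 4 of the 14 fits that left out a mouse, those without CP CML replicate 5 or BC CML replicate 1, 3 or 4, and had an adjusted p up to 0.145 in the others. It was also lost by the likelihood ratio test (adjusted p = 0.0584), with scaling by library size alone (0.0621) and with no filter on low counts (0.0523), and its log2 fold change was 0.06 (adjusted p = 0.567) with the myeloid covariate and 0.07 (adjusted p = 0.405) with the B cell covariate. Psmc5 was lost without BC CML replicate 5 or 6 (adjusted p = 0.0719 and 0.0518) and with the replicate block (0.058). Its log2 fold change was 0.12 (adjusted p = 0.14) with the myeloid covariate and 0.09 (adjusted p = 0.189) with the B cell covariate. Psmc2 was at the lower end, with 81.3, 83.4 and 87.0 CPM in CP CML and 75.5, 82.1 and 95.4 CPM in BC CML, so that the BC CML mice spread to both sides. Its log2 fold change was −0.0031 (SE 0.04, 95% interval from −0.09 to 0.08). Psmc4 and Psmc6 did not pass either.

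Among the other base subunits, Psmd1, a scaffold that docks ubiquitin-binding proteins, had 102, 106 and 116 CPM in CP CML and 131, 143 and 159 CPM in BC CML. All BC CML mice were above all CP CML mice, with a log2 fold change of 0.41 (SE 0.04, adjusted p = 2.4e-07), the largest of the 19S particle. Psmd2, the companion scaffold, had a log2 fold change of 0.02 (SE 0.03, 95% interval from −0.04 to 0.08). Psmd4, a ubiquitin receptor, had 91.7, 98.6 and 103 CPM against 84.8, 94.6 and 98.7 CPM. Its log2 fold change was −0.07 (SE 0.04, adjusted p = 0.113), and without BC CML replicate 5 it passed, at −0.09 (adjusted p = 0.0496). In the lid, Psmd12, Psmd8 and Psmd7 were higher, by 0.26, 0.23 and 0.13. With the myeloid covariate Psmd12 still passed, while Psmd8 had 0.14 (adjusted p = 0.0988) and Psmd7 had 0.10 (adjusted p = 0.173). Psmd12 had 63.6, 69.3 and 72.8 CPM in CP CML and 79.5, 83.1 and 90.3 CPM in BC CML, without overlap (SE 0.04, adjusted p = 1.13e-05). The other 5 lid genes did not pass, among them Psmd14, the deubiquitinase of the lid (0.05, SE 0.05, adjusted p = 0.322). Psmd3 was the lowest of the lid, with 88.4, 90.0 and 96.1 CPM against 86.2, 88.6 and 94.5 CPM and a log2 fold change of −0.03 (SE 0.03, adjusted p = 0.459).

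Of the 7 assembly chaperones tested, 2 were lower in BC CML, where 32.7% of all genes tested were, and 5 did not pass the test. Of the 4 chaperones of the 20S core, 0 were higher by edgeR (also at an unadjusted p below 0.05) or DESeq2, and 2 were lower. Psmg2 had 26.9, 30.7 and 31.9 CPM in CP CML and 18.5, 22.7 and 24.8 CPM in BC CML. The groups did not overlap, and its log2 fold change of −0.45 (SE 0.06, adjusted p = 7.87e-06) was the lowest of the 47. Psmg1, which pairs with Psmg2 on the alpha ring, was lower, with a log2 fold change of −0.18 (SE 0.06, adjusted p = 0.0184), with 2 of 6 BC CML mice below all CP CML mice and a log2 fold change of −0.11 (adjusted p = 0.374) with the myeloid covariate and −0.19 (adjusted p = 0.0729) with the B cell covariate. Psmg4 and Psmg3 had the fewest reads of the 47, from 102 to 164 per mouse. Psmg4 had 5.96, 7.23 and 8.18 CPM against 6.27, 7.55 and 9.09 CPM, and its log2 fold change of 0.08 had the widest error of the 47 (SE 0.10). The 3 chaperones of the 19S base, Psmd5 (0.07), Psmd9 (0.07) and Psmd10 (−0.09), did not pass, with adjusted p of 0.202, 0.442 and 0.104. Their median log2 fold change of 0.07 was close to that of the 17 genes of the 19S particle, 0.06. Psmd5 had 40.7, 44.5 and 48.1 CPM in CP CML and 43.6, 47.4 and 49.8 CPM in BC CML. Psmd10, also known as gankyrin, had 20.9, 21.4 and 22.7 CPM against 17.9, 20.4 and 21.4 CPM, and the groups overlapped in both.

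Per kilobase of gene model, CP CML levels of the tested genes ranged from 7.11 CPM for Psmf1 to 282 CPM for Psme1, a 39.7-fold span, with a median of 47.3 CPM, compared with 9.47 CPM over all genes tested. Psmb8 (202 ± 11.6 CPM per kb, SD, n = 8) and Psme2 (184 ± 16.2) followed Psme1 (282 ± 8.38). The spreads of Psmb8 and Psme2 over the mice touched. Both genes were measured in the same libraries, so this spread is not the error of their difference, which was not tested. Alpha ring genes ranged from 42.0 (Psma3) to 131 CPM per kb (Psma2), although the ring holds equal numbers of each. Psmb7 (19.1 ± 0.90 CPM per kb), Psmb2 (20.7 ± 0.66) and Psmb5 (21.3 ± 1.88) were the least abundant subunits of the core. The SD of Psmb5 over the mice overlapped those of Psmb7 and Psmb2, and their differences were not tested. The chaperones ranged from 7.18 (Psmd9) to 22.1 CPM per kb (Psmd5). Reads per length depend on the length the authors listed for each gene, which for Psmb7 is 3.22 kb.

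**Figure D5:**
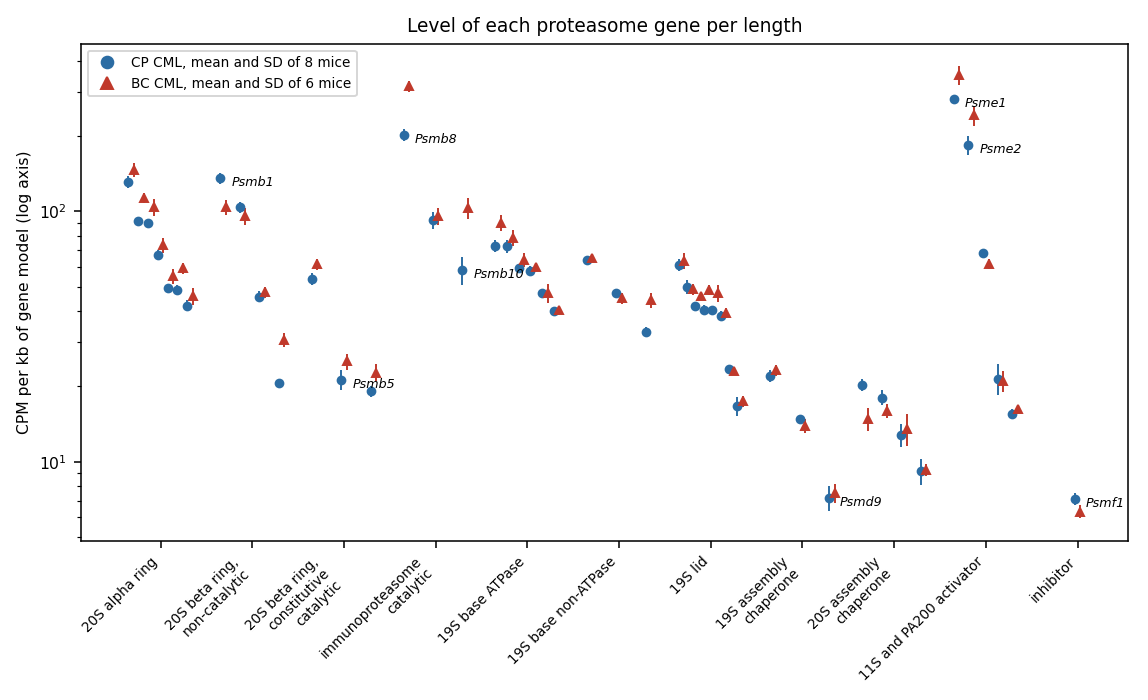
CPM per kilobase of gene model (log axis) for each tested proteasome gene, by subcomplex, as the mean and SD over 8 CP CML mice (circles) and 6 BC CML mice (triangles). Psme1, Psmb8 and Psme2 are the highest in both groups, and Psmf1 is the lowest.

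Spread between mice was small. The median coefficient of variation of the 47 genes was 4.84% over the CP CML mice and 6.61% over the BC CML mice, compared with 8.89% and 9.31% for all genes tested. The 47 genes were the more abundant set (median 47.3 against 9.47 CPM per kb in CP CML), and the comparison was not matched for level. Psme2b, Psmb10, Psmg3 and Psmd9 varied most among the CP CML mice, by 13.9%, 12.7%, 12.2% and 11.2%. CP CML replicates 2 and 7 had the lowest Psmb10 (62.9 and 60.5 CPM), Psme2 (158 and 153 CPM) and Psmb9 (65.8 and 67.6 CPM), and replicate 5 had the highest Psmb10 (89.9 CPM), Psmb8 (269 CPM) and Psme2 (201 CPM). Replicates 2 and 7 were also the lowest CP CML mice for Nlrc5 (460 and 467 CPM) and Tap2 (167 and 165 CPM). These mice were picked out after their values were seen, and the pattern is a description.

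Genes that work with the proteasome moved in both directions. Of 34 such genes, 33 were tested, 13 were higher and 8 lower in BC CML, with a median log2 fold change of 0.07. These shares, 39.4% higher and 24.2% lower, stand beside 32.6% and 32.7% of all genes tested. Nfe2l1, the transcription factor that induces proteasome genes when degradation is impaired, was higher by 0.29 (SE 0.05, adjusted p = 4.67e-05), and the related factor Nfe2l2 by 0.36 (SE 0.04, adjusted p = 1.14e-07). Sel1l (0.51, SE 0.04, adjusted p = 1.28e-09) and Syvn1 (0.39, SE 0.09, adjusted p = 0.00176), partners in degradation of proteins of the endoplasmic reticulum, were among the 3 highest together with the ubiquitin ligase Ube3c (0.47, SE 0.03, adjusted p = 7.35e-10). Pomp, which matures the 20S core, had 0.05 (SE 0.04, adjusted p = 0.279). Among the 8 that were lower were Rps27a (−0.79, SE 0.06, adjusted p = 3.25e-09), which encodes ubiquitin fused to a ribosomal protein, and the shuttle factor Ubqln4 (−0.35, SE 0.05, adjusted p = 1.44e-05). Ubb, which encodes ubiquitin alone, did not pass (−0.04, SE 0.07, adjusted p = 0.68).

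Partners of the immunoproteasome in class I presentation were mostly higher. Of 12 genes, 10 were higher (83.3%, against 32.6% of all genes tested) and 0 were lower by edgeR or DESeq2, as the log2 fold change was above 0 for all 12, with a median of 0.32. Irf8 (1.204, SE 0.13, adjusted p = 9.2e-07) and Nlrc5 (0.42, SE 0.09, adjusted p = 0.00038) were among the highest. Irf8 is also abundant in myeloid, dendritic and B cells, whose markers were higher in these samples. Nlrc5, an activator of class I genes, was at 804, 802, 739, 778, 623 and 550 CPM in BC CML replicates 1 to 6. Replicate 5, at 623 CPM, was the mouse with the highest Psmb8, Psmb10 and Psme2. In CP CML, replicate 5 had the highest of these 3 genes and also the highest Nlrc5, 589 CPM. Both mice were picked out after their values were seen. The lowest of the 10 were Irf2 (0.18, adjusted p = 0.0057), H2-K1 (0.25, adjusted p = 6.04e-05) and Irf1 (0.26, adjusted p = 0.000252). Tapbp, like Tap1, did not pass (0.13, SE 0.06, adjusted p = 0.0859).

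Since the BC CML mice lack miR-142, the 3′UTRs of the proteasome genes were searched for its seed. The mature sequences, from RefSeq on GRCm38.p6 (chr11:87756867-87756887 and chr11:87756903-87756925, plus strand), are shown with the seed, bases 2 to 8, in capitals.
mmu-miR-142a-5p: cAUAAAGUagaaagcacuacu
mmu-miR-142a-3p: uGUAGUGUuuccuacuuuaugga
In the GENCODE vM21 3′UTRs, an 8-base or 7-base match to the seed of miR-142-3p (ACACTACA, ACACTAC or CACTACA) was found in 3 of the 47 genes (6.38%), Psma2, Psmd1 and Psmd11, and in 13.3% of 11515 tested genes with a 3′UTR. A match to miR-142-5p (ACTTTATA, ACTTTAT or CTTTATA) was found in 8 of the 47 (17.02%), against 24.0% of tested genes. These were Psma4, Psma5, Psmb9, Psmd5, Psme2, Psme2b, Psmf1 and Psmg2. The full 8-base match was found for miR-142-5p in Psmf1 and for miR-142-3p in none. Proteasome 3′UTRs were short, with a median of 335 bases against 1373, so the shares are not comparable at equal length. Of the 2 immunoproteasome genes that rose, neither Psmb8 nor Psmb10 held a match, while Psmb9, which did not pass, held 1 for miR-142-5p. Genes with a match went both ways. Psma2, Psma4, Psma5, Psmd1 and Psme2 were higher, Psmf1 and Psmg2 were lower, and Psmb9, Psmd5, Psmd11 and Psme2b did not pass. Psmc3ip, the gene that shares the symbol only, had 56 to 107 reads per mouse and was higher by 0.37 (SE 0.10, adjusted p = 0.00476), a call lost with either marker covariate.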

How the data were processed

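The authors trimmed reads (Trimmomatic for adapters, FASTP for polyA tails), aligned them to mm10 with STAR 2.6.0 and deposited raw read counts per gene from HTSeq-count 0.11.1, with each gene's position and length. The annotation and strand setting used for counting are not given in the sources used here. Groups came from the sample titles. No pair of libraries agreed within sampling noise (chi-square per degree of freedom of at least 2.99).

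Counts were analysed using edgeR 4.0.16 (R 4.3.3). The 12248 genes that filterByExpr retained were tested with TMM scaling and quasi-likelihood fits (BC CML against CP CML, no covariate, Benjamini-Hochberg adjustment over all genes, threshold 0.05). The study used the likelihood ratio test, which was an alternative here. The SE came from the fold change and its F statistic, and 95% intervals from the SE and the normal distribution. CPM values use library sizes scaled by the TMM factors. Log2 ratios within a library, with 0.5 added to each count, were tested by exact permutation over mice. The proteasome genes, gene lists and pairs were chosen with earlier results of these data known. Values by mouse are given for the catalytic pairs, Psme1, Psme2 and the highest and lowest fold change of each subcomplex. Of the related and class I lists, Nfe2l1, Nfe2l2, Pomp, Tap1, Tap2, Nlrc5 and the 3 highest and 3 lowest past the threshold are named, except for 2 genes that count in their lists but whose values are not reported here, and any other gene was chosen after its values were seen. Besides the likelihood ratio test, the alternatives were DESeq2 1.42.0, scaling by RLE or by library size only, 2 other filters on low counts, the replicate number as a block, marker scores as covariates and each mouse left out in turn.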

Additional observations from a re-analysis of the deposited data

Results flagged for a closer look

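Of 100 groups of values examined (each tested gene and within-pair ratio in each group), 4 had a mouse that stood apart from the others by Dixon's criterion, where chance flags about 1 in 20 groups, or 5. Psmb6 was at 61.8 CPM in CP CML replicate 5, and the next CP CML mouse was at 55.8 CPM. In the same mouse Psmc3 was at 133 CPM, and the next was at 119 CPM. Psmc6 was at 80.4 CPM in CP CML replicate 8, below the next lowest at 87.7 CPM. The log2 ratio of Psmb8 to Psmb5 was 4.28 in BC CML replicate 2, and the next was 4.15. Psmb6 stayed past the threshold and Psmc6 stayed short of it in each of the 14 fits that left out a mouse. Without CP CML replicate 5, Psmc3 was still past the threshold.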

How the results depend on the processing

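Of the 47 proteasome genes, 33 had the same call under all 9 alternatives other than leaving out a mouse, and none reversed. With the myeloid covariate 13 genes were higher and 2 lower, and under the other 8 alternatives 17 to 23 were higher and 4 to 6 lower. The covariate raised the median standard error from 0.05 to 0.07, and whether this accounts for the lost calls was not tested. Leaving out each mouse in turn gave 18 to 22 higher and 5 to 7 lower, and 40 of the 47 genes kept the same call in all 14 fits. No scaling moved the median of all genes by over 0.1 on the log2 scale. The log2 ratio of Psmb9 to Psmb6 differed between groups by −0.14, and by −0.17 to −0.11 with a mouse left out, with exact permutation p between 0.00699 and 0.0855. The ratios of Psmb8 to Psmb5 and of Psmb10 to Psmb7 kept their side of the threshold in each alternative. Replicate numbers are shared between the groups, but the mice are different animals. Same-numbered mice did not deviate together (mean correlation −0.02, and 2 of 6 correlated best with their own number). With the replicate block, 21 proteasome genes were higher and 4 lower, with Psmb4, Psmc5 and Psmf1 lost, and the difference in the Psmb9 to Psmb6 ratio was −0.16 (exact sign-flip p = 0.0938). All genes called ranged from 5489 with the myeloid covariate to 8719, against 7986. Depth limits Psmg3 and Psmg4 most, at 102 to 164 reads per mouse.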
